A study of Homo sapiens with 6 samples.

Results

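The voltage-gated sodium, voltage-gated calcium and potassium channel genes of H660 cells were examined with and without silencing of MUC1. Members were the genes in the count table whose symbols start with SCN and a digit, with CACNA or with KCN, and that had at least 10 counts in at least 3 of the 6 libraries. Of 28008 genes measured, 152 matched these letters and 89 met the count limit. The 63 others included 22 genes with 0 counts in every library.

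H660 (NCI-H660) is a neuroendocrine prostate cancer (NEPC) cell line. All cells carried an shRNA against MUC1, the gene of the transmembrane mucin MUC1-C, in a tetracycline-inducible vector, and were selected in puromycin. The DOX-negative group (n = 3) received 0.1% DMSO and the DOX-positive group (n = 3) received doxycycline (DOX) at 500 ng/ml, which switches the shRNA on. RNA was taken from cells cultured in triplicate, and separate origins of the cultures were not stated, so p-values measure the spread between these libraries, which may be technical. Since no library had DOX without this shRNA, effects of DOX itself and of MUC1 silencing cannot be told apart, and a single cell line was used.

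Ion channels are membrane proteins that let selected ions cross the membrane. Sodium and calcium channels opened by depolarization generate action potentials and start hormone release, whereas potassium channels set the resting potential and end each spike. Pore subunits form the ion pathway, and auxiliary subunits change the gating and the delivery of the pore to the surface. Neuroendocrine cells are excitable, which links their channels to secretion.

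Library totals ran from 47620696 to 74061121 counts. The target of the shRNA was checked first. In DOX-negative cells MUC1 had 88.2, 90.2 and 79.6 CPM (read counts relative to TMM-scaled library totals), and in DOX-positive cells 36.7, 37.2 and 29.9 CPM. No library of a group reached the level of the other, and the log2 change was -1.32 (SE 0.10, adjusted p = 0.00017). All 8 of 8 neuroendocrine markers had a mean TPM, a level per transcript length, of at least 1, against 0 of 6 luminal prostate markers, with the prostate-specific antigen gene KLK3 at 0. Markers of other cells were low, with 0 of 3 basal, 1 of 7 fibroblast, 0 of 3 endothelial and 0 of 4 leukocyte genes at a mean of at least 1 TPM. Since 4 structured noncoding RNAs held 65.2% to 71.6% of the TPM of a library, other TPM values are lowered. Genes under 1 TPM, such as the luminal TMPRSS2 at 0.44 TPM, are therefore not shown to be absent. In these bulk samples, fewer cells of a type and less RNA per cell cannot be told apart.

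Sequences before 3 channel genes and between a neighbouring pair were read from the human reference to show the setting of the gene with the highest channel level, of called genes of both directions and of the neighbouring pair. KCNK16 and KCNK17 are neighbours on the minus strand of chromosome 6, with KCNK16 ending just before KCNK17 begins, and the first sequence is the whole stretch between them. KCNN3 fell, KCNH1 rose and KCNK3 had the highest channel level, and for each of them the 250 bases before the annotated gene start are shown. All are printed 5′ to 3′ on the strand of the gene, from RefSeq on GRCh38.p14. Capitals mark letters of the RE1 element, the site of REST, which represses neuronal genes. Its left part was searched as TCAGCACC and its right part as GGACAGC, on both strands.
KCNK17, after KCNK16, chr6:39314420-39314569, minus strand: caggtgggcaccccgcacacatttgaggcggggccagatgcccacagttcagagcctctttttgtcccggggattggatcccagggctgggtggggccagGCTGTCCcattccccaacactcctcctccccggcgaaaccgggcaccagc
KCNN3, chr1:154870282-154870531, minus strand: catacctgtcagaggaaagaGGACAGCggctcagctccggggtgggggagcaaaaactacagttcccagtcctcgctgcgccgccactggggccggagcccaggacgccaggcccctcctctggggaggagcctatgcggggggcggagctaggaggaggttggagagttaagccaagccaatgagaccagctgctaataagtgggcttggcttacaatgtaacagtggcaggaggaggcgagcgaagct
KCNK3, chr2:26692472-26692721, plus strand: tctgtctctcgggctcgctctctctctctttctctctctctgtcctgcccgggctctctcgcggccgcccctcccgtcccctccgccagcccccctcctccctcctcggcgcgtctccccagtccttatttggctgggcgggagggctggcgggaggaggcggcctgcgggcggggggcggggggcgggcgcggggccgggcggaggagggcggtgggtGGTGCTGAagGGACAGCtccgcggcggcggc
KCNH1, chr1:211134149-211134398, minus strand: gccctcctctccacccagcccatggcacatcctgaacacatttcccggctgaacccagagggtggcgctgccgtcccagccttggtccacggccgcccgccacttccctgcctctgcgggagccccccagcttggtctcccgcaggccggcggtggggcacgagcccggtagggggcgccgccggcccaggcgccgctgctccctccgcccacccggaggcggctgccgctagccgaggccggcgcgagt

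The sequence before KCNK17 held the right part, written as its reverse complement GCTGTCC from position 101 of the 150 bases. That before KCNN3 held it from position 21. The KCNK3 sequence held the left part from position 220 on the opposite strand and the right part from position 230, so the parts lay on opposite strands, whereas they share a strand in a full RE1 element. The KCNH1 sequence held neither. Among called genes not printed, the windows of CACNA2D3, which fell, and of KCNA2 and SCN11A, which rose, held neither part. The windows at other starts of KCNN3 held neither as well, and KCNK9, KCNB2 and SCN3B had no window. Whether these letters go with the changes was not tested. Windows of the 250 bases before each annotated start were searched in the same way. The right part was in 7 of 91 windows of the channel genes (7.69%, from 63 of the 89 genes) and in 4.76% of all 35116 windows. The left part was in 2 of 91 (2.2%) and in 1.32%. The E-box CACGTG was in 6.59% of channel windows and 6.34% of all windows, and TATAAA in 7.69% and 10.7%. Channel windows had a median of 16 CpG sites and 65.6% G or C, against 11 sites and 58.0% over all windows. RE1 letters in a window describe sequence and not binding.

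H660 cells expressed most channel classes at low levels. Over the 6 libraries 31 of the 89 channel genes had a mean of at least 1 TPM, 9 of at least 5 TPM and 43 were under 0.5 TPM, with a median of 0.597 TPM. Structured noncoding RNAs, led by the 7SK RNA (RN7SK), held 65.2% to 71.6% of the TPM of a library, which lowers the TPM of every other gene, so levels are best read in order within these libraries. By mean TPM, KCNK3 stood at percentile 84.5 of protein-coding genes and the calcium channel gene CACNA1B at percentile 61.3. The background potassium channels (KCNK) held 32.6% of the summed channel TPM, and the pores of voltage-gated potassium channels 30.7%. The CACNA2D auxiliary subunits held 11.5%, the CACNA1 calcium channel pores 5.06% and the SCN sodium channel pores 3.41%.

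KCNK3, KCNK17 and KCNK5, which encode background channels that respond to the pH outside the cell, led the order at means of 11.5, 10.7 and 8.98 TPM. KCNS3, an electrically silent subunit that joins KCNB pores, and KCNB2, a delayed rectifier pore, followed at 8.37 and 7.64 TPM. CACNA2D2 and CACNA2D1, which carry calcium channel pores to the membrane, had 7.16 and 5.64 TPM. KCNAB2, the cytoplasmic beta subunit of KCNA channels, lay between them at 6.99 TPM. The ranges of neighbours in this order overlapped, for example 9.20 to 13.99 TPM for KCNK3 and 7.11 to 15.12 TPM for KCNK17.

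Lower in the order stood KCNQ5 (3.79 TPM), a pore of the M current, KCNH8 (3.46 TPM) and KCNH7 (3.02 TPM) of the ether-a-go-go family, and KCNJ11 (3.02 TPM), the pore of the ATP-sensitive potassium (KATP) channel. CACNA1B, the N-type calcium channel pore that triggers transmitter release, had 3.58 TPM. SCN8A, a sodium channel pore of neurons, led its class at 1.48 TPM, and SCN4B led the sodium channel beta subunits at 0.67 TPM. KCNN1, a small-conductance calcium-activated channel, led its class at 2.08 TPM. The noncoding KCNQ5-IT1 had 5.11 TPM and KCNMB2-AS1 2.78 TPM, and both overlap other channel genes. Reads of KCNQ5-IT1 and of KCNQ5, on the same strand, cannot be separated by strand.

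**Figure D1:**
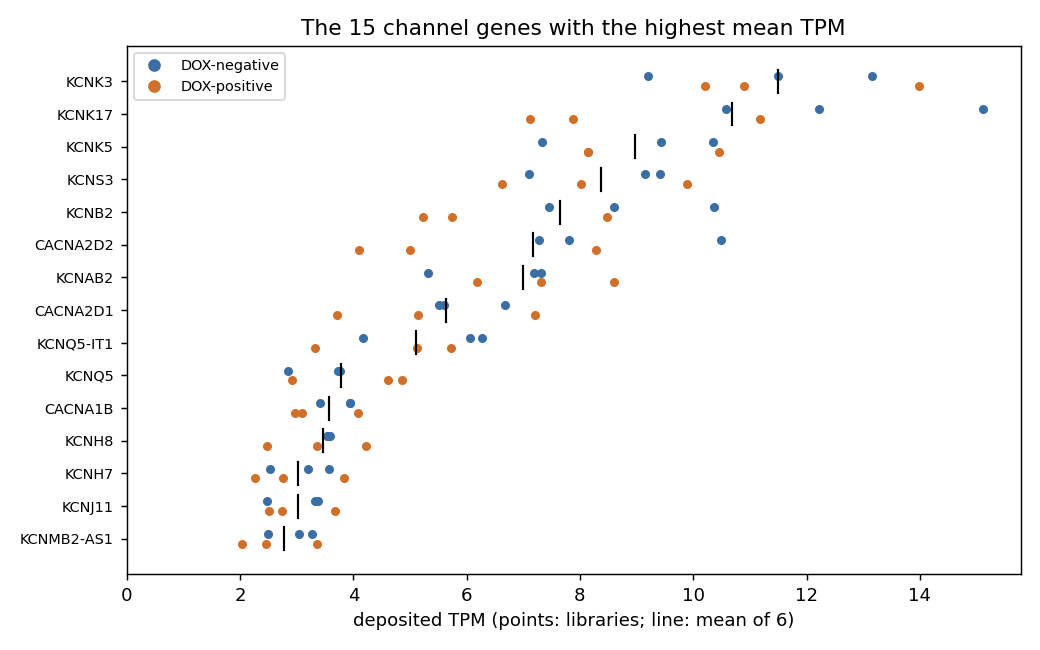
Deposited TPM (x axis) of the 15 channel genes with the highest mean TPM, with 1 point per library, blue for DOX-negative and orange for DOX-positive, and a line at the mean of 6 libraries. KCNK3, KCNK17 and KCNK5 lead, and the ranges of neighbouring genes overlap.

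Other familiar channels were nearly silent. CACNA1A, the P/Q-type pore, had 2, 0 and 1 counts in the DOX-negative libraries and 0, 2 and 1 in the DOX-positive libraries, and CACNA1C, the cardiac L-type pore, had 3 counts in all, in DOX-positive replicate 1. These 2 genes were picked after their values were seen. At the count limit, KCNJ15 was just inside with 10, 17 and 10 counts in DOX-negative and 7, 2 and 2 in DOX-positive libraries, followed by KCNH1-IT1 (7 to 14 counts) and KCNS2 (8 to 16 counts, inside the more abundant STK3). Just outside were KCNE1 (5 to 12 counts), KCNK13 (3 to 13) and KCNK15-AS1 (2 to 10). KCNJ15 was the only member that met the limit through 1 group and was also the only one not tested, and 82 members met it in all 6 libraries.

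The comparison of DOX-positive with DOX-negative cells asked which channels change when MUC1 is silenced. Of 88 tested channel genes 9 were called at an adjusted p under 0.05, 4 higher and 5 lower. That is 10.2% of them, against 4.87% of all 17026 tested genes (2.91% higher and 1.96% lower). KCNA2, SCN3B, KCNH1 and SCN11A rose, and KCNN3, KCNK17, KCNK9, CACNA2D3 and KCNB2 fell. Every one of these changes except that of KCNA2 was smaller than 2-fold. The groups did not overlap for 32 of 88 channel genes (36.4%, 14 higher and 18 lower), against 28.1% of all genes. At an unadjusted p under 0.05 there were 33 of 88 (37.5%), against 21.1% of all genes. The median change was -0.04 on the log2 scale against 0.00 over all genes, with 55.7% of channel genes and 49.9% of all genes below 0, and the median size of change was 0.24 against 0.13.

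**Figure D2:**
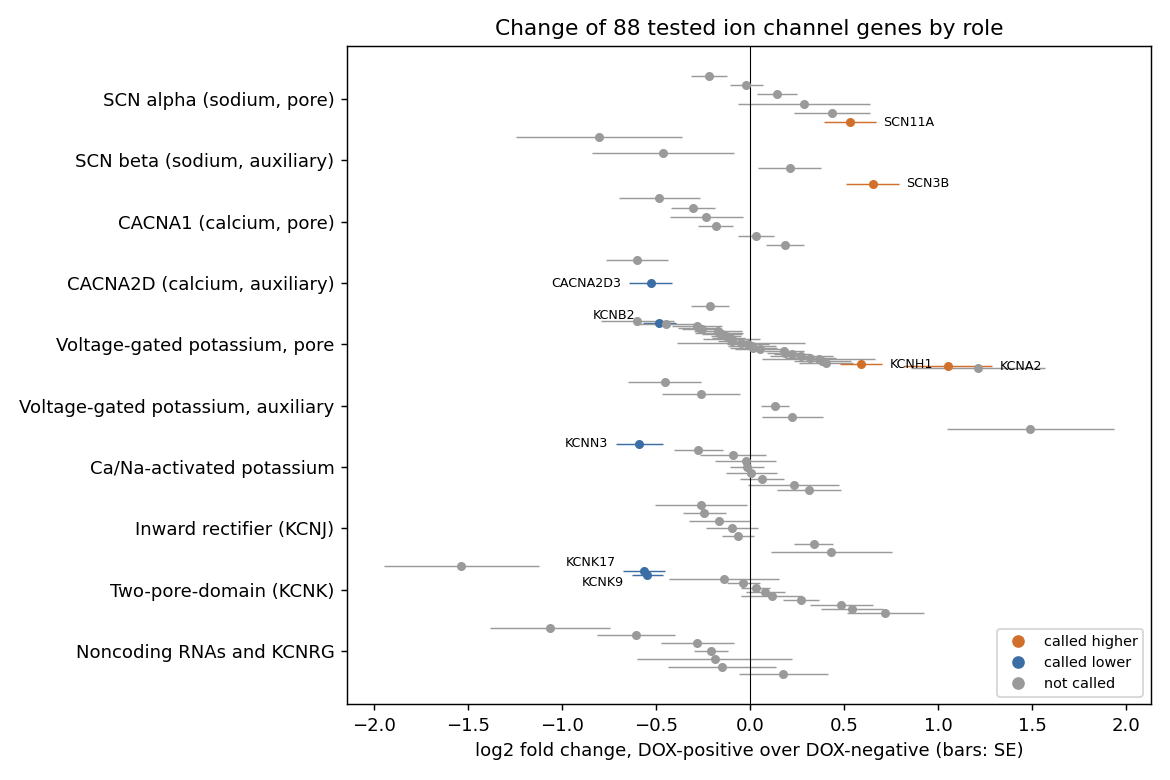
The log2 fold change of DOX-positive over DOX-negative (x axis) of the 88 tested channel genes, grouped by role (y axis), with bars for the SE, orange for called higher, blue for called lower and grey for not called. The calls stand on both sides of 0, with SCN11A, SCN3B, KCNH1 and KCNA2 to the right and KCNK9, KCNK17, KCNN3, CACNA2D3 and KCNB2 to the left.

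Among sodium channel pores 1 of 6 was called, against 4.87% of all genes, with a class median of 0.22 on the log2 scale. SCN11A, a tetrodotoxin-resistant pore known from pain-sensing neurons, was at 4.29, 3.49 and 3.47 CPM in DOX-negative and 4.87, 5.22 and 6.20 CPM in DOX-positive libraries. All DOX-positive libraries were above all DOX-negative ones. SCN11A (chr3:38845764-39051944) rose by 0.53 on the log2 scale (SE 0.14, adjusted p = 0.048), close to the threshold. The call was lost in 12 of 21 alternatives, among them RLE scaling, no scaling factors, a limit of 50 counts, limma-voom, edgeR without the robust option and a fit of protein-coding genes only (adjusted p from 0.051 to 0.062). It was also lost without DOX-negative replicate 2 (0.48) or 3 (0.48) and without DOX-positive replicate 2 (0.56) or 3 (0.42). The most abundant pore, SCN8A, had a value of -0.22 (SE 0.10, adjusted p = 0.22) and was not called.

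Among the 4 sodium channel beta subunits 1 was called, against 4.87% of all genes, with a class median of -0.13. SCN3B, which modulates inactivation of sodium channel pores, was at 3.51, 3.36 and 2.60 CPM in DOX-negative and 4.64, 4.86 and 5.45 CPM in DOX-positive libraries. The groups were apart, and SCN3B (chr11:123629188-123654624) rose by 0.65 (SE 0.14, adjusted p = 0.023). It was not called without DOX-negative replicate 2 (0.70) or 3 (0.53) or DOX-positive replicate 3 (0.58), or on TPM rescaled across protein-coding genes. SCN4B was at 5.99, 7.97 and 8.53 CPM and at 6.40, 4.60 and 1.84 CPM. Its DOX-positive replicate 3 stood far below the rest and the groups overlapped, so its value of -0.81 carried an SE of 0.44 (adjusted p = 0.37).

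None of the 6 CACNA1 pores was called by edgeR, and 2 of 6 were at an unadjusted p under 0.05, as were 21.1% of all genes (class median -0.21). CACNA1B was at 69.7, 65.8 and 73.9 CPM in DOX-negative and 60.6, 69.2 and 54.7 CPM in DOX-positive libraries, which overlapped, with a value of -0.18 (95% interval -0.38 to 0.02). The CACNA2D subunits, the binding site of gabapentin-type drugs in the case of CACNA2D1 and CACNA2D2, were below 0 for 3 of 3 measured genes. Their median was -0.53, and 1 of 3 was called, against 4.87% of all genes.

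CACNA2D3 was at 17.0, 17.2 and 21.2 CPM in DOX-negative and 14.3, 12.7 and 11.3 CPM in DOX-positive libraries. All DOX-positive libraries were lower, and CACNA2D3 (chr3:54122552-55074557) fell by 0.53 (SE 0.12, adjusted p = 0.025). Its call was lost without DOX-negative replicate 2 (-0.58) or 3 (-0.42) or DOX-positive replicate 2 (-0.52) or 3 (-0.45). The call was also lost on TPM rescaled across protein-coding genes (limma, adjusted p = 0.061). CACNA2D2 was at 81.7, 103.5 and 92.9 CPM against 72.5, 66.0 and 44.6 CPM. These groups did not overlap either, but replicate 3 of the DOX-positive group was again the lowest, and the value of -0.60 (SE 0.16, adjusted p = 0.071) was not called by edgeR. It was called by DESeq2 (adjusted p = 0.0014), by edgeR without the robust option (adjusted p = 0.049) and without DOX-positive replicate 1 (-0.75).

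The pores of voltage-gated potassium channels were the largest class, with a median of -0.01. Of 29 genes 2 were called higher and 1 lower, against 2.91% and 1.96% of all genes. KCNB2, a delayed rectifier pore, was at 53.7, 61.1 and 56.9 CPM in DOX-negative and 44.3, 41.2 and 37.3 CPM in DOX-positive libraries. The groups were well apart, and KCNB2 fell by 28.4% (log2 -0.48, SE 0.09, adjusted p = 0.013). It was not called without DOX-negative replicate 2 (-0.43) or 3 (-0.49), and it shares its locus on chromosome 8 with a noncoding gene averaging 324.8 counts (LOC101926908), whose reads may be split differently by other counting. KCNS3, its silent partner subunit, was at 39.8, 38.6 and 37.7 CPM against 36.0, 36.3 and 36.2 CPM. These groups were also apart, but the value was only -0.10 (95% interval -0.26 to 0.07).

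KCNH1, the founding human ether-a-go-go channel, which is often studied in tumours, was at 3.51, 3.67 and 3.40 CPM in DOX-negative and 5.12, 5.51 and 5.30 CPM in DOX-positive libraries. Libraries within each group were close together, and KCNH1 (chr1:210678314-211134148) rose by 50.4% (log2 0.59, SE 0.11, adjusted p = 0.015). It was not called without DOX-negative replicate 2 (0.62) or 3 (0.56), or on TPM rescaled across protein-coding genes (limma, adjusted p = 0.052). The noncoding KCNH1-IT1, which lies in KCNH1, had a mean of 9.8 counts and a value of -0.19 (SE 0.41). Its levels were too low to compare the pair.

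KCNA2, a Shaker-type pore of axons, was at 0.70, 0.73 and 0.50 CPM in DOX-negative and 1.05, 1.33 and 1.70 CPM in DOX-positive libraries. The groups did not overlap, and KCNA2 (chr1:110593580-110631440) had the largest change of the 9 called genes, 1.05 on the log2 scale (SE 0.24, adjusted p = 0.027), from a mean of 65.2 counts. Its call was lost without DOX-negative replicate 2 (1.15) or 3 (0.92) or DOX-positive replicate 2 (1.07) or 3 (0.85). KCNA7, another Shaker-type pore, was at 0.19, 0.13 and 0.17 CPM against 0.27, 0.49 and 0.39 CPM. The groups were apart at a mean of 17.3 counts, with a value of 1.21 (SE 0.36, adjusted p = 0.073). KCNA7 was called once DOX-positive replicate 1 was left out (1.43) and with GC and length trends removed (1.17).

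The remaining abundant pores of this class were not called. KCNQ5 had a value of 0.22 (95% interval 0.01 to 0.43, adjusted p = 0.21), KCNH8 of -0.15 (interval -0.38 to 0.08) and KCNH7, which overlaps GCA, of -0.11 (interval -0.30 to 0.07). None of the 5 auxiliary subunits of voltage-gated potassium channels was called by edgeR, with 2 of 5 at an unadjusted p under 0.05 against 21.1% of all genes. KCNAB2 had a value of 0.13 (interval -0.03 to 0.30). KCNIP4, which binds KCND pores, was at 0.19, 0.36 and 0.11 CPM against 0.68, 0.29 and 0.88 CPM. Its groups overlapped and its value was 1.49 (SE 0.44, adjusted p = 0.076). KCNIP4 was called by DESeq2, without DOX-positive replicate 2 (1.80) and with GC and length trends removed (1.51). The gene overlaps PACRGL, which averaged 1515 counts.

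Of 9 calcium- or sodium-activated potassium channel genes 1 was called, against 4.87% of all genes, with a median of -0.01. KCNN3, a small-conductance channel that opens when intracellular calcium rises and lengthens the pause after a spike, was at 3.74, 3.80 and 3.51 CPM in DOX-negative and 2.51, 2.55 and 2.29 CPM in DOX-positive libraries. The libraries of each group lay close together with a clear gap between groups. KCNN3 (chr1:154697455-154870281) fell by 33.6% (log2 -0.59, SE 0.13, adjusted p = 0.023), and the call was lost without each of the DOX-negative replicates (-0.58, -0.57 and -0.63 without replicates 1, 2 and 3) or without DOX-positive replicate 3 (-0.54). The related and more abundant KCNN1 had a value of -0.28 (interval -0.56 to 0.01).

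**Figure D3:**
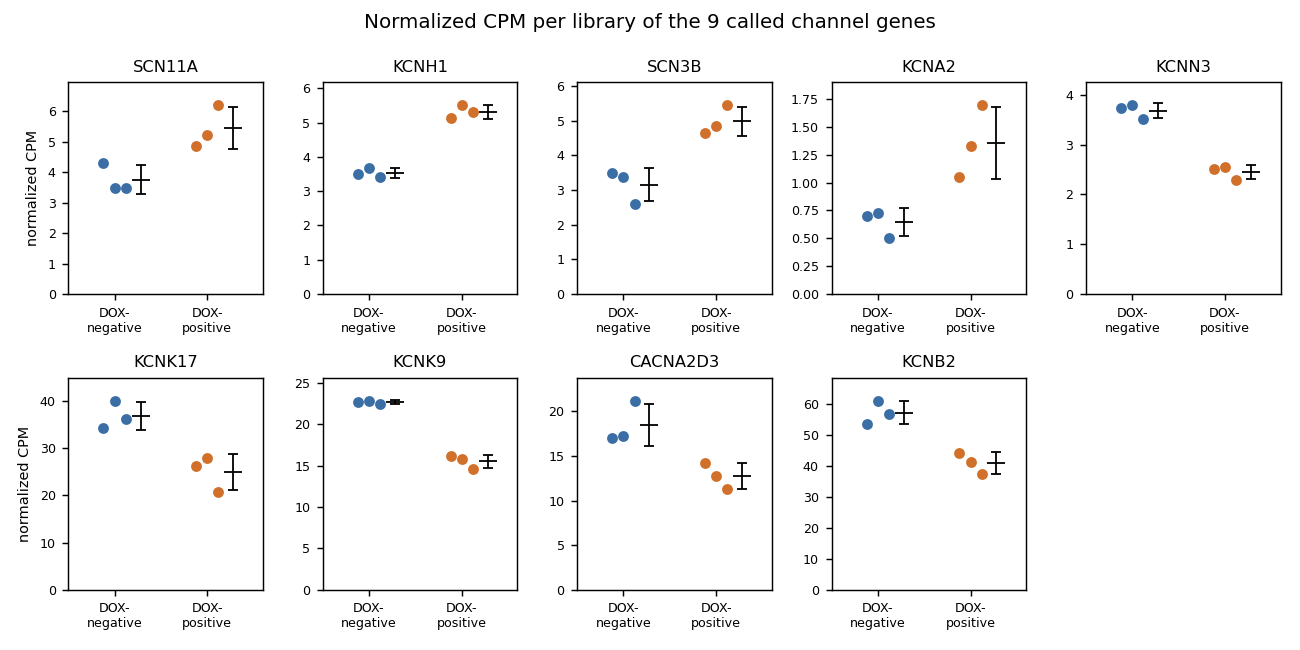
Normalized CPM (y axis, from 0) of the 9 called channel genes in each library, blue for DOX-negative and orange for DOX-positive, with the group mean and SD in black. In each panel the 3 libraries of a group lie on the same side of the 3 libraries of the other.

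Background potassium channels had 2 of 12 genes called, both lower, and a class median of 0.06. Of all genes 4.87% were called, 1.96% lower. KCNK9, an acid-sensitive background channel related to KCNK3, was at 22.7, 22.8 and 22.4 CPM in DOX-negative and 16.1, 15.8 and 14.6 CPM in DOX-positive libraries. The libraries of a group agreed closely, and KCNK9 fell by 31.6% (log2 -0.55, SE 0.08, adjusted p = 0.0061). It had the lowest adjusted p of the channel genes, and its call held when any single library was left out (-0.58 to -0.50). KCNK3 was at 80.2, 86.6 and 78.5 CPM against 81.8, 89.8 and 79.1 CPM. Its groups overlapped throughout, and the value was 0.03 (95% interval -0.14 to 0.20), with a negative sign without DOX-negative replicate 3 (-0.0034) or DOX-positive replicate 2 (-0.02).

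KCNK5, KCNK17 and KCNK16 form a cluster on chromosome 6. KCNK17 (chr6:39299001-39314419) and KCNK16 (chr6:39314570-39322968) are separated by the 150 bases printed above, and KCNK5 lies 69.5 kb from KCNK17. KCNK17 and KCNK16 encode channels activated by alkaline pH, known from the pancreas. KCNK17 was at 34.3, 40.0 and 36.2 CPM in DOX-negative and 26.2, 27.9 and 20.7 CPM in DOX-positive libraries. The groups did not overlap, and KCNK17 fell by 32.3% (log2 -0.56, SE 0.11, adjusted p = 0.019), with the call lost without DOX-negative replicate 2 (-0.50) or 3 (-0.58).

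KCNK16 was at 4.13, 6.90 and 6.20 CPM in DOX-negative and 2.69, 2.44 and 0.84 CPM in DOX-positive libraries. All DOX-positive libraries were lower, replicate 3 most of all. The value of -1.54 was the largest in size of all 88 channel genes, but with an SE of 0.41 it missed the threshold (adjusted p = 0.093). Over the alternatives its adjusted p ran from 1e-05 to 0.37. KCNK16 was called by DESeq2, by limma-voom, by edgeR without the robust option and by the fits of deposited TPM with a filter. It was also called without DOX-positive replicate 3 (-1.16, adjusted p = 0.011), but not on TPM rescaled across protein-coding genes (limma, adjusted p = 0.056). KCNK5 was at 62.4, 64.7 and 59.3 CPM against 57.9, 68.0 and 56.1 CPM. Its groups overlapped, with a value of -0.04 (interval -0.22 to 0.15) that was 0.02 without DOX-positive replicate 3. Differences in change between these neighbours were not tested.

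None of the 7 tested inward rectifiers was called in the reported edgeR fit (median -0.10). At an unadjusted p under 0.05 there was 1 of 7, against 21.1% of all genes. KCNJ2, at 0.34 (SE 0.10, adjusted p = 0.083), was called by edgeR with GC and length trends removed, when 12.9% of all genes were called. KCNJ11, the KATP channel pore, was at 20.6, 19.8 and 18.8 CPM in DOX-negative and 19.2, 19.8 and 17.8 CPM in DOX-positive libraries. The groups overlapped, and the value was -0.06 (interval -0.25 to 0.12). ABCC8, the sulfonylurea receptor that KCNJ11 needs for a working KATP channel in endocrine cells, was at 14.9, 17.7 and 17.3 CPM against 10.4, 10.7 and 7.15 CPM. The groups did not overlap, and ABCC8 fell by 0.82 (SE 0.14, adjusted p = 0.010), with the call lost without DOX-negative replicate 3 (-0.80). The difference between the change of the receptor and that of the pore was not tested.

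**Figure D4:**
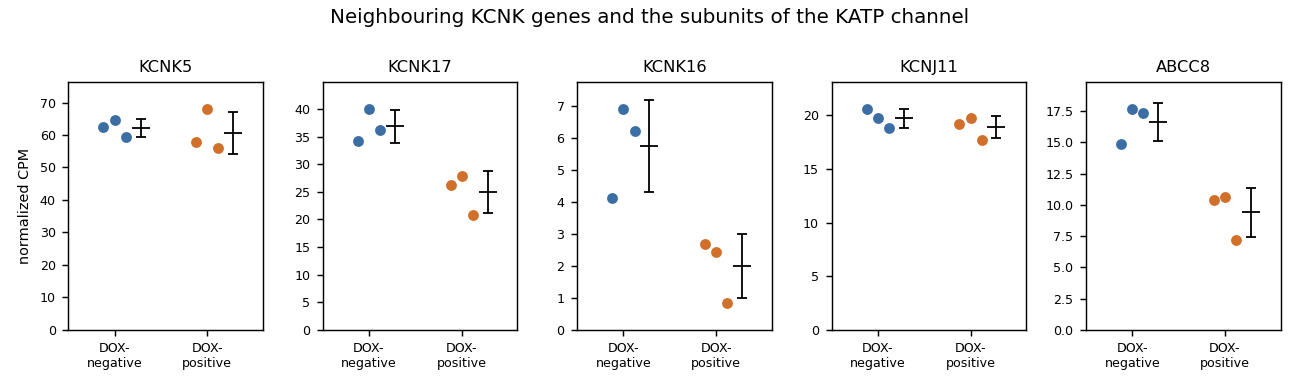
Normalized CPM (y axis, from 0) in each library of the chromosome 6 genes KCNK5, KCNK17 and KCNK16 and of the KATP subunits KCNJ11 and ABCC8, blue for DOX-negative and orange for DOX-positive, with the group mean and SD in black. KCNK17, KCNK16 and ABCC8 are lower in every DOX-positive library, whereas KCNK5 and KCNJ11 overlap.

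The 7 genes with channel letters but another product, among them antisense and intronic RNAs, had a median of -0.21, and none was called by edgeR, with 3 of 7 at an unadjusted p under 0.05 against 21.1% of all genes. KCNC4-AS1, listed in RefSeq as the divergent transcript KCNC4-DT, was at 0.52, 0.89 and 1.03 CPM against 0.33, 0.55 and 0.30 CPM. Its groups overlapped, with a value of -1.06 (SE 0.32, adjusted p = 0.077). KCNC4-AS1 was called without DOX-negative replicate 1 (-1.31), with replicate number as a block (-1.04) and with GC and length trends removed (-1.06). KCNQ5-IT1 had a value of -0.28 (SE 0.19, adjusted p = 0.45), which was -0.48 without DOX-negative replicate 1 and -0.05 without DOX-negative replicate 3. KCNMB2-AS1 had a value of -0.21 (SE 0.09, adjusted p = 0.21).

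A list of 55 other channel genes, which included calcium channel beta and gamma subunits, leak channel subunits, anchors, sulfonylurea receptors and REST with its corepressor, had 36 tested genes and 3 calls (8.33%, against 4.87% of all genes), with a median of 0.00 and 17 above and 19 below 0. Besides ABCC8 these were ANK2 and NEDD4. ANK2, the ankyrin that anchors ion channels and transporters to the membrane skeleton, was at 569.0 ± 13.4 CPM in DOX-negative and 412.7 ± 14.4 CPM in DOX-positive libraries (SD, n = 3) and fell by 0.46 (SE 0.07, adjusted p = 0.006). NEDD4, a ubiquitin ligase of the family that removes sodium channels from the membrane, went from 12.9 ± 1.37 to 19.6 ± 2.71 CPM (SD, n = 3) and rose by 0.60 (SE 0.12, adjusted p = 0.016). Its call was lost without DOX-negative replicate 2 (0.53) or 3 (0.58), and on TPM rescaled across protein-coding genes.

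REST, named for its site in the sequences above and after its values were seen, had a value of 0.06 (SE 0.09, adjusted p = 0.76).

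The number of calls moved with the libraries included, for channel genes and for all genes. DOX-positive replicate 3 was the library farthest from the median of its group for 43 of 88 channel genes, against 23 and 22 for the others, and DOX-negative replicate 3 for 37, against 28 and 23. Without DOX-negative replicate 2 or replicate 3 a single channel gene, KCNK9, was called, when 127 (0.737%) and 58 (0.337%) of all genes were called. The changes themselves kept their sign for all 9 genes. Without DOX-negative replicate 2 those of KCNH1 (0.62), KCNA2 (1.15), CACNA2D3 (-0.58) and SCN3B were larger in size than with all libraries. Those of KCNB2 (-0.43), KCNK17, KCNN3 and SCN11A were smaller in the same fit. Without DOX-negative replicate 3 those of KCNH1 (0.56), KCNA2 (0.92), CACNA2D3 (-0.42), SCN3B and SCN11A were smaller, whereas those of KCNB2 (-0.49), KCNK17 and KCNN3 (-0.63) were larger. Without DOX-positive replicate 3 there were 5 channel calls with 375 of all genes (2.17%), and without DOX-positive replicate 1 there were 14 with 1035 (6.02%). These 14 included KCNJ15, which met the count limit through the DOX-negative group alone. DESeq2 called 13 channel genes, including all 9, with 8.43% of the genes it adjusted called. Endothelial markers summed to 0.321 to 0.512 TPM in DOX-negative and 0.717 to 0.794 TPM in DOX-positive libraries (2 of 3 called higher, PECAM1 near 0), leukocyte markers to 0.691 to 0.991 and 1.01 to 1.31 TPM (1 of 4 called higher, CD3E at 0) and fibroblast markers to 2.41 to 3.48 and 2.46 to 3.65 TPM (2 of 7 called higher, THY1 at 0). Neuroendocrine markers summed to 290 to 411 and 267 to 429 TPM, with 2 of 8 called lower. The shares over all genes were 2.91% called higher and 1.96% called lower. The part of these markers in the channel results was not tested.

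**Figure D5:**
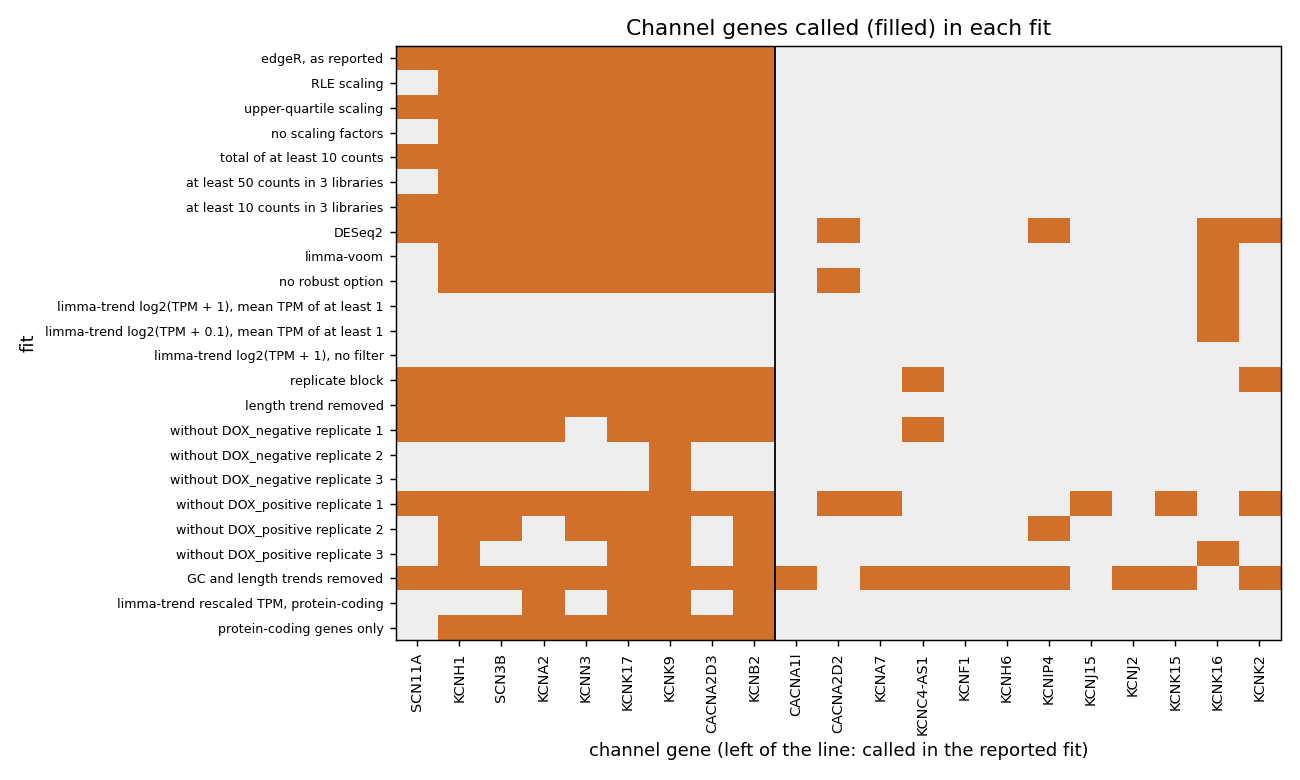
Channel genes (x axis) called at an adjusted p under 0.05 (filled) in each fit (y axis), with the 9 genes of the reported edgeR fit left of the line. KCNK9 is filled in all fits but the 3 on deposited TPM, and the rows without DOX-negative replicate 2 or 3 hold KCNK9 alone.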

How the data were processed

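Groups and replicate numbers came from the sample titles. Per the labels, RNA was column-purified and made into stranded mRNA libraries. The authors deposited raw read counts per gene symbol and TPM, and the submitters' processing notes name STAR, DESeq2 and GRCh38 (hg38). The annotation and the strand setting of counting are not given in the sources used here. Every column matched a sample.

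Counts were filtered with filterByExpr, scaled by TMM and tested across all genes with the robust quasi-likelihood test of edgeR 4.0.16 (R 4.3.3), and p-values were adjusted by Benjamini-Hochberg over 17026 genes. Log2 values are DOX-positive over DOX-negative, and intervals are 95%. Alternatives used DESeq2 1.42.0 and limma 3.58.1, the latter also on log2(TPM + 1) and log2(TPM + 0.1). Scripts were tested on simulated data. Counts within a group varied by 15.6 to 95.5 times the sampling variance (chi-square per degree of freedom); no library was a copy of another. Positions and sequences are from RefSeq GRCh38.p14, matched by symbol for 94.9% of genes and all 89 channel genes.

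The members and lists were chosen with earlier results of these data known. Named were all called genes, the 15 with the highest mean TPM, the highest of each class, the 5 largest changes not called, the 3 genes on each side of the count limit, and from the other channel genes those called. The rule also named the 3 of these with the highest TPM, which are not reported here.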

Additional observations from a re-analysis of the deposited data

How the results depend on the processing

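Over 23 alternatives, 651 of 740 values of 34 single genes kept direction and side of the threshold, 65 lost and 17 gained the call, and 7 reversed. Of channel genes, 1 of 31 tested was called on log2(TPM + 1) with a filter and 1 of 31 on log2(TPM + 0.1). In both fits it was KCNK16, so 0 of the 9 reported calls were shared. The filter, a mean of at least 1 TPM, left KCNA2, KCNH1, SCN11A, SCN3B and KCNN3 untested. On log2(TPM + 1) without a filter 0 were called (limma, 15 at an unadjusted p under 0.05). TPM summed to the same total across protein-coding genes (rescaled TPM) gave 4, KCNA2, KCNB2, KCNK17 and KCNK9. There were 18 with GC and length trends removed (when 12.9% of all genes were called), and 1 to 14 when a library was left out. The other channel genes gave 0, 0 and 0 calls on these deposited TPM (2, 2 and 3 at an unadjusted p under 0.05), 9 with GC and length trends removed and 1 to 3 when a library was left out. Over all genes there were 1355 calls by DESeq2, 31, 35 and 11 on deposited TPM (45.2%, 45.7% and 81.8% higher, against 59.8% of 829), 379 on rescaled TPM, 2193 with GC and length trends removed and 58 to 1035 when a library was left out. MUC1 was at -1.22 without a TPM filter (adjusted p = 0.11). The GC and length, rescaled TPM and protein-coding fits were added after the data were seen. The cause was not tested, except that the fits without a library had fewer samples. The values that reversed were those of KCNK3 (-0.022 to 0.075 when a library was left out, negative without DOX-negative 3 and DOX-positive 2, and -0.014 with GC and length trends removed), KCNK5 (-0.12 to 0.018, positive without DOX-positive 3), KCNH1-IT1 (-0.42 to 0.064, positive without DOX-positive 3) and KCNS2 (-0.16 to 0.064, positive without DOX-negative 1 and DOX-positive 2). Correlations of deviations between libraries of the same replicate number were -0.34, 0.011 and -0.12. With 3 libraries per group they cannot decide whether the numbers pair the libraries. The replicate block gave 11 channel calls, including all 9, with 998 of all genes, against 829 in the reported fit. Depth limits genes near 10 counts, such as KCNJ15, which was not tested in the reported comparison. It was called without DOX-positive replicate 1, but it met the count limit through the DOX-negative group alone, so this call is not independent of the limit.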
